A study of Mus musculus with 9 samples.

Results

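The subject is the machinery that copies DNA, 46 genes for origin licensing and the replication fork, followed across the cerebellum and medulloblastoma of mice at postnatal day 13. The genes were taken from a list of gene names covering the helicase, origin recognition and loading factors, polymerases, sliding clamp and fork proteins. For each, the probe set annotated to that gene alone stood for it, and where a gene had several, the brightest over the 9 arrays. All 46 were found among 19938 genes with such a probe set. A filter on dim values kept 45 of them and 16323 genes in all for testing, and left out Gmnn. The samples formed 3 groups of 3, each sample on its own Affymetrix Mouse Gene 1.0 ST array. They were medulloblastoma labelled Ptch1 KO, called the tumours below, cerebellum labelled Sufu KO, and wildtype cerebellum. The genotype labels read Ptch1KO, SufuKO and wildtype and name no strain, Cre driver or deleted exon. Nothing in them states that each sample was a separate animal. The p-values therefore rest on sample-to-sample spread that may be partly technical.

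DNA replication begins with licensing. In G1 the origin recognition complex, with Cdc6 and Cdt1, loads the ring of Mcm2 to Mcm7 onto DNA, and geminin, the product of Gmnn, later blocks Cdt1 so that each origin fires only once. At S phase entry the kinase Cdc7 with its activator Dbf4, and the factor Ticrr, bring Cdc45 and the GINS complex to the ring to form the active helicase. Polymerase alpha with primase starts each strand, polymerases epsilon and delta extend it on the Pcna clamp that the Rfc complex loads, and Fen1 and Lig1 join the lagging strand fragments. E2F transcription factors, released from the retinoblastoma proteins, are known to switch on many of these genes at the G1 to S transition. In the cerebellum the cells that divide after birth are chiefly granule neuron progenitors of the external layer, which proliferate in response to Sonic hedgehog. Medulloblastoma of the Hedgehog class is known to arise from them.

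Promoters of these genes are shown as a description only, and no link between their motifs and the rise was tested. RefSeq promoter windows, from 250 bases before to 50 after an annotated start (GRCm38.p6), matched 37 of the 46 genes with 46 windows in all. The E2F pattern TTTNNCGC, searched on both strands, was present in windows of 16 of the 37 genes. That was 34.8% of their windows, against 6.24% of 21263 windows of protein-coding genes and 5.17% of all 32851 windows. The stricter forms TTTCCCGC and TTTGGCGC, both contained in TTTNNCGC, were found in 8 and 7 of the 37 genes, or 17.4% and 15.2% of their windows, against 1.41% and 0.635% of the protein-coding windows. The CCAAT box, which NF-Y binds, was present in 50% of the windows against 38.2% of the protein-coding ones, and the GC box GGGCGG in 73.9% against 46.2%. TTTGAA, the core of the CHR element of mitotic genes, was present in 17.4% against 16.0%. The median GC content was 61.8% in the genes' windows against 56.3% in the protein-coding ones, and its part in these shares was not tested.

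The windows below belong to the 4 genes with the highest and the 2 with the lowest tumour minus wildtype difference among the genes with a window. They are read 5′ to 3′ on the gene's strand, with matches to TTTNNCGC on either strand in capitals. Where a gene had several windows, only the first listed is shown. Window 2 of Mcm7 (chr5:138171217-138171516) and windows 2 and 3 of Orc4, not shown, held 0 matches. Mcm6 (chr1:128359656-128359955, minus strand) held 3 matches, of which 2 overlap. Mcm7 (chr5:138171834-138172133, minus strand) held 2. Chaf1b (chr16:93883651-93883950, plus strand) and Dbf4 (chr5:8422667-8422966, minus strand), also among the 4 highest, held 0. Orc3 (chr4:34614893-34615192, minus strand), one of the genes that rose least, held 1, and Orc4 (chr2:48950032-48950331, minus strand) 0. The pattern was present in 13 of 28 genes with a window whose tumour minus wildtype difference was 1 log2 unit or more, and in 3 of 9 genes below that.
Mcm6: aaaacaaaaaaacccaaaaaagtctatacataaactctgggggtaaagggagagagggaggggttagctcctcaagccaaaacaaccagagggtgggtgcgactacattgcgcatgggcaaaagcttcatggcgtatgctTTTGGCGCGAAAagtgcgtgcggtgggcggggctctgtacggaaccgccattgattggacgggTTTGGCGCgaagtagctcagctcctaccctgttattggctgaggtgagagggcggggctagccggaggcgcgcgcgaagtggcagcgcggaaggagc
Chaf1b: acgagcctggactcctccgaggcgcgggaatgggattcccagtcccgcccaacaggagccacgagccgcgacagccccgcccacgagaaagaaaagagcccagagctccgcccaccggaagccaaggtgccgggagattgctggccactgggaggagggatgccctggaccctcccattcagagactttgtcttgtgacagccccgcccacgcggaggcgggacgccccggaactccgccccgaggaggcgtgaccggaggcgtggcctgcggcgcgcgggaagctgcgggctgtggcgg
Mcm7: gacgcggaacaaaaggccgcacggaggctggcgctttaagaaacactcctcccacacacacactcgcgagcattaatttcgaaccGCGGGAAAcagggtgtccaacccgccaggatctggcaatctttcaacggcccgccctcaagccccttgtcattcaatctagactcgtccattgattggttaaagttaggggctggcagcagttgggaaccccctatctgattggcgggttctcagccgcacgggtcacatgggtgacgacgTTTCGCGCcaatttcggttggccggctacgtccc
Dbf4: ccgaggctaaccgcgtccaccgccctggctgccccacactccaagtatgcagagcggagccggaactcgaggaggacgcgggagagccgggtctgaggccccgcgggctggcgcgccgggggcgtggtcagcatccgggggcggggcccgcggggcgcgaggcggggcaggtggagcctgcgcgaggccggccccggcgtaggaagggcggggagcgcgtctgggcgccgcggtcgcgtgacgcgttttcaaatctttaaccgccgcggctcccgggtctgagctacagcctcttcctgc
Orc3: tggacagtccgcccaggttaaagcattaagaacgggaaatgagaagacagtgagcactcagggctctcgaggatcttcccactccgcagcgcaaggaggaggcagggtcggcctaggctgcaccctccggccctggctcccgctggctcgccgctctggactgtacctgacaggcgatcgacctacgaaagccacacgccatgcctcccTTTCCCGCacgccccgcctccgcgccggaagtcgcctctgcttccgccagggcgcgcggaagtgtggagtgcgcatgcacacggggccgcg
Orc4: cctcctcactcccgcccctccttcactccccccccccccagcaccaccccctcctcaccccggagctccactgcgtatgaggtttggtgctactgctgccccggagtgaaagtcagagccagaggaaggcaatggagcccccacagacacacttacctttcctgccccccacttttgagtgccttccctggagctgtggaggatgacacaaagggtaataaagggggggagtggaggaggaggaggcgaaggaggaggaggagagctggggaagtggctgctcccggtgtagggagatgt

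Levels are the authors' deposited log2 values, so a difference of 1 is a doubling, and array medians lay between 6.72 and 6.79. Sufu, the negative regulator that binds Gli factors, read between 9.81 and 9.92 in the tumours, between 7.99 and 8.14 in Sufu KO, and between 8.82 and 9.03 in wildtype. Ptch1, the Hedgehog receptor, read between 11.17 and 11.43 in the tumours, against 10.16 to 10.25 in Sufu KO and 10.25 to 10.28 in wildtype. The pathway itself induces Ptch1, and the labels give no deleted exon, so its level is no check on that label. Xist, the RNA of the inactive X chromosome, was high in tumour replicate 2, Sufu KO replicate 3 and all 3 wildtype samples (11.59 to 11.97) and low in the other 4 (5.55 to 5.83), so sex differed between groups. Tumour replicate 3 stood nearest to the wildtype on the first principal component, at 26.1 against 41.3 and 39.9. The cerebellar marker Gabra6, a GABA receptor subunit of granule neurons, was bright on every array, from 9.46 to 12.09, and Pcp2 of Purkinje cells read 8.27 to 10.15.

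Nearly the whole replication machinery was higher in both mutants than in wildtype, and higher still in the tumours. In the tumours 44 of 45 tested genes rose and 0 fell, while 22.1% of all tested genes were called higher and 24.7% lower. Of the 45, 34 rose by at least 1 log2 unit, which 3.43% of all genes did. In Sufu KO cerebellum 41 rose and 0 fell, against 13% and 12.4% of all genes, and 13 rose by at least 1 log2 unit against 1.14%. The median log2 difference of the 45 was 1.37 in the tumours and 0.75 in Sufu KO, while the median of all tested genes was -0.01 in both. No gene of the 45 was lower at unadjusted p under 0.05 either. With Xist level as a covariate, 44 were called higher in the tumours and 42 in Sufu KO. The shares of all genes called in that fit are not given here. No wildtype sample had low Xist, so the effect of this covariate was estimated almost wholly within the mutant groups. Both comparisons share the wildtype arrays. The tumour mean lay above the Sufu KO mean, and that above the wildtype mean, for 44 of the 46 genes, Orc4 and Gmnn being the exceptions. In total RNA of a tissue, more cells of a replicating type and more of these RNAs per cell cannot be told apart. Each call is a limma moderated test with Benjamini-Hochberg adjusted p under 0.05 over 16323 genes.

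**Figure D1:**
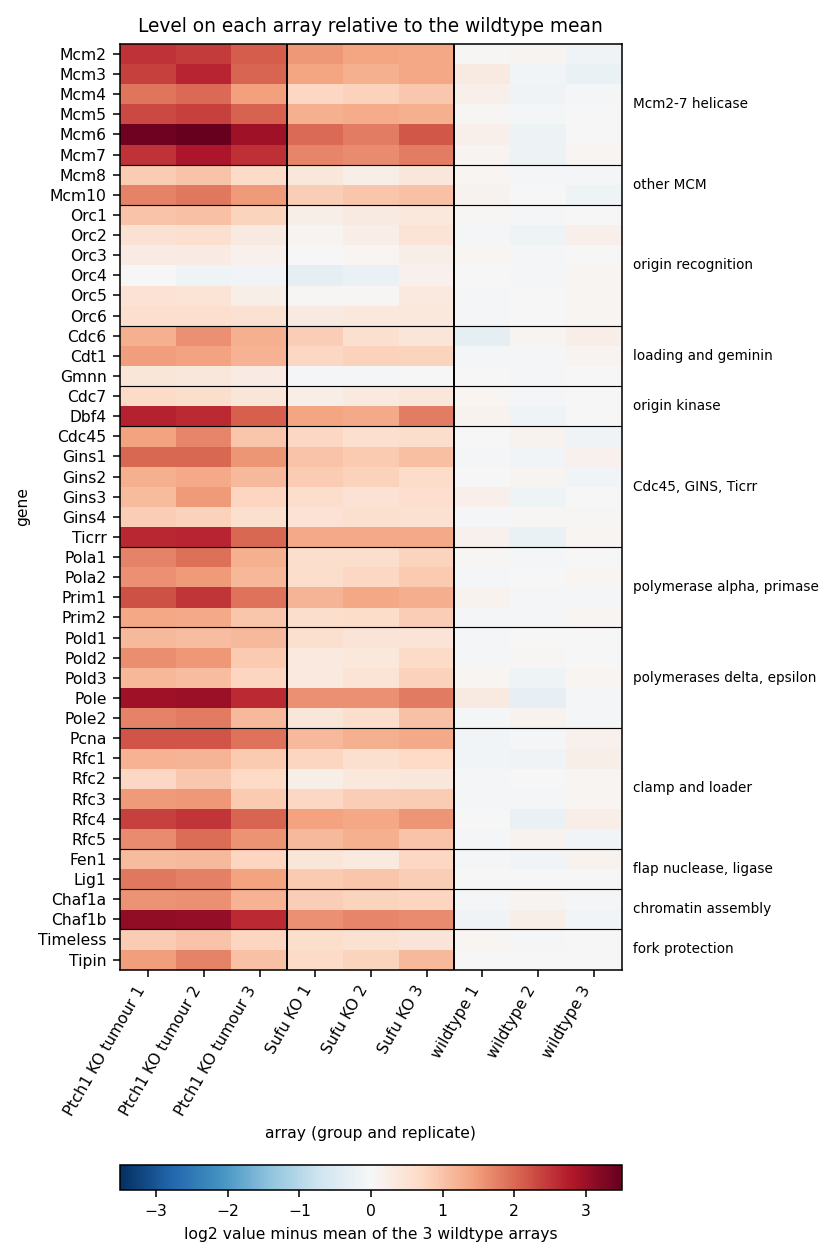
Each cell is the log2 value of 1 of the 46 replication genes (rows, grouped by role) on 1 of the 9 arrays (columns), minus the mean of the 3 wildtype arrays. Tumour columns are the darkest, Mcm6 most of all at 3.36 on average, Sufu KO columns are intermediate, and Orc2 to Orc5 stay pale throughout.

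The Mcm2 to Mcm7 genes encode the ring that unwinds DNA, and all 6 rose in both mutants, by 1.76 to 3.36 log2 units in the tumours and 0.82 to 1.98 in Sufu KO. Mcm6 moved furthest. It read 9.57, 9.85 and 9.12 in the tumours, 8.13, 7.95 and 8.33 in Sufu KO, and 6.33, 5.97 and 6.17 in wildtype. Every tumour array lay above every Sufu KO array, and those above every wildtype array, with log2 differences from wildtype of 3.36 ± 0.16 (SE) in the tumours and 1.98 ± 0.16 in Sufu KO. Its fold in the tumours was 10.2 (adjusted p = 1.91e-08), the eighth highest log2 difference of all 16323 genes tested. Mcm4, in the same ring, moved least of the 6. It read 8.88, 8.98 and 8.44 in the tumours, 7.73, 7.81 and 7.94 in Sufu KO, and 7.18, 6.89 and 6.94 in wildtype. The groups did not overlap for Mcm4 either, and its level was up 3.40-fold in the tumours (adjusted p = 3.23e-07) and 1.77-fold in Sufu KO (adjusted p = 0.000626).

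Mcm2, a subunit that also holds parental histones, read 10.02, 9.95 and 9.61 in the tumours, 9.0, 8.88 and 8.85 in Sufu KO, and 7.54, 7.57 and 7.35 in wildtype. Relative to wildtype it was 5.17-fold higher in the tumours (adjusted p = 1.07e-08) and 2.68-fold higher in Sufu KO (adjusted p = 3.91e-06). Mcm7 read 9.92, 10.23 and 9.97 in the tumours, 9.10, 9.04 and 9.19 in Sufu KO, and 7.50, 7.22 and 7.48 in wildtype. Among the 6 it was second to Mcm6 in both mutants, at 6.23-fold in the tumours and 3.28-fold in Sufu KO. Mcm5, which with Mcm2 forms the gate of the ring, read 9.82, 9.91 and 9.58 in the tumours, 8.75, 8.82 and 8.76 in Sufu KO, and 7.55, 7.45 and 7.54 in wildtype. Its arrays lay close together in each group, and it rose 4.77-fold in the tumours and 2.40-fold in Sufu KO. Mcm3 read 8.66, 8.94 and 8.30 in the tumours, 7.65, 7.50 and 7.62 in Sufu KO, and 6.58, 6.17 and 6.05 in wildtype. It rose 5.15-fold in the tumours and 2.50-fold in Sufu KO, and its SD was 0.32 in the tumours, 0.08 in Sufu KO and 0.28 in wildtype. Summed on the linear scale, the 6 genes gave 3762 to 5064 units per tumour array and 2101 to 2243 per Sufu KO array, against 768 to 875 per wildtype array.

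**Figure D2:**
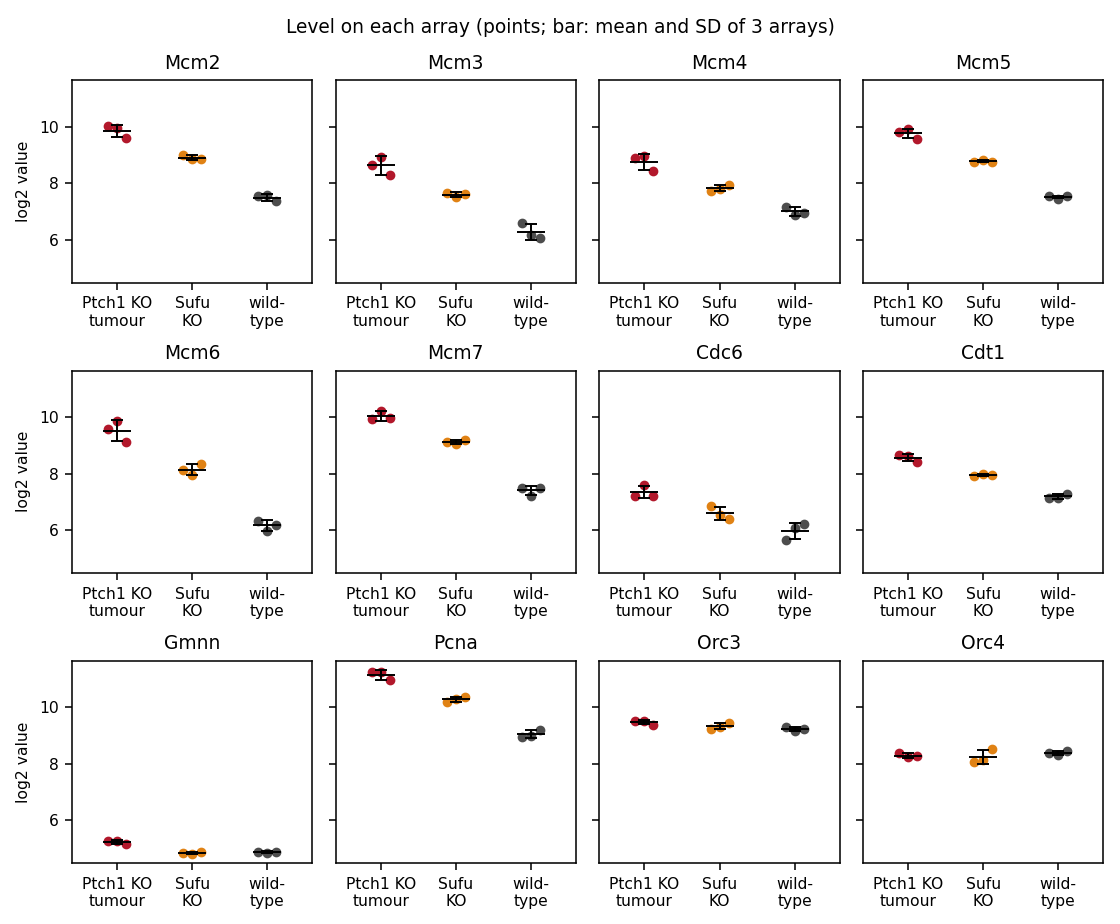
Points are log2 values on single arrays and bars the mean and SD of 3 arrays, for 12 replication genes on a common axis. The 6 Mcm genes, Cdt1 and Pcna form separate steps, with the tumours highest and Sufu KO between them and wildtype, whereas Orc3 and Orc4 stay level and Gmnn lies near 5.

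Mcm8 and Mcm10, relatives of the ring subunits, rose in both mutants. Mcm10, a fork factor that helps to activate the helicase, was 3.22-fold higher in the tumours (adjusted p = 6.72e-08) and 1.94-fold in Sufu KO (adjusted p = 3.52e-05). Mcm8, which acts in recombination repair with Mcm9, was 1.80-fold higher in the tumours (adjusted p = 7.75e-06) and 1.26-fold higher in Sufu KO (adjusted p = 0.0191). The Sufu KO call of Mcm8 ended without either Sufu KO replicate 1 or 3, or wildtype replicate 2 or 3 (adjusted p 0.0555 to 0.0702). Mcm9, which is not among the 46, had log2 differences of 0.50 in the tumours (adjusted p = 0.000284) and 0.17 in Sufu KO (adjusted p = 0.169).

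The origin recognition complex, which loads the ring, showed small differences. Of its 6 genes 5 rose in the tumours, none by 1 log2 unit, and 2 in Sufu KO, with median log2 differences of 0.43 and 0.20. Of all tested genes 22.1% were called higher in the tumours and 13% in Sufu KO. Orc1, the subunit whose amount cycles in many cells, read 6.27, 6.30 and 6.05 in the tumours, 5.49, 5.59 and 5.65 in Sufu KO, and 5.31, 5.23 and 5.27 in wildtype. Its groups did not overlap, and the rise was 1.91-fold in the tumours (adjusted p = 1.14e-06) and 1.24-fold in Sufu KO (adjusted p = 0.0137, or 0.0556 without wildtype replicate 2). Every wildtype value of Orc1 lay below the cut of the filter on dim values (5.32 to 5.41 over the arrays). Orc1 therefore passed that filter only through the mutant arrays, and its rise over wildtype may be understated. Its calls against wildtype, counted among the 44 and 41, are for that reason no independent support for a rise. Orc6, the smallest subunit, read 8.46, 8.47 and 8.40 in the tumours, 8.18, 8.25 and 8.25 in Sufu KO, and 7.81, 7.86 and 7.96 in wildtype. Relative to wildtype it was 1.48-fold higher in the tumours (adjusted p = 1.30e-05) and 1.27-fold higher in Sufu KO (adjusted p = 0.00191).

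The other 4 subunits, which form the stable core, differed little. Orc2 read 8.46, 8.50 and 8.24 in the tumours, 8.02, 8.16 and 8.40 in Sufu KO, and 7.90, 7.79 and 8.12 in wildtype. The tumours were 1.38-fold above wildtype (adjusted p = 0.00431). In Sufu KO, where its arrays overlapped wildtype, its log2 difference was 0.26 (95% confidence interval 0.01 to 0.50, adjusted p = 0.118). Orc5 read 8.32, 8.31 and 8.02 in the tumours, 7.86, 7.87 and 8.16 in Sufu KO, and 7.74, 7.81 and 7.90 in wildtype. The tumour rise was 1.32-fold (adjusted p = 0.00599), and the difference in Sufu KO was 0.15 (interval -0.07 to 0.37, adjusted p = 0.348). Orc3 read 9.51, 9.52 and 9.38 in the tumours, 9.24, 9.29 and 9.44 in Sufu KO, and 9.30, 9.17 and 9.24 in wildtype. Its tumour rise of 1.18-fold (adjusted p = 0.0207) ended without tumour replicate 1 or 2 or wildtype replicate 2 (adjusted p 0.0717 to 0.0832), and its Sufu KO difference was 0.09 (interval -0.08 to 0.25). Orc4 read 8.37, 8.22 and 8.28 in the tumours, 8.06, 8.15 and 8.53 in Sufu KO, and 8.37, 8.32 and 8.45 in wildtype. Its groups overlapped, and the log2 difference was -0.09 in the tumours (interval -0.32 to 0.14, adjusted p = 0.563) and -0.13 in Sufu KO (interval -0.36 to 0.10, adjusted p = 0.422). Orc4 was called lower in Sufu KO without Sufu KO replicate 3 (-0.27, adjusted p = 0.0252), the array that read 8.53.

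Among the loading factors, Cdc6 and Cdt1 rose in both mutants, while geminin stayed at the dim end of every array. Cdc6, the ATPase that closes the loading complex, read 7.22, 7.59 and 7.21 in the tumours, 6.83, 6.53 and 6.39 in Sufu KO, and 5.66, 6.07 and 6.20 in wildtype. Relative to wildtype it was 2.57-fold higher in the tumours (adjusted p = 1.11e-05) and 1.52-fold higher in Sufu KO (adjusted p = 0.0115), with no overlap between groups. Cdt1, the chaperone of the Mcm ring, read 8.64, 8.61 and 8.42 in the tumours, 7.91, 8.0 and 7.96 in Sufu KO, and 7.15, 7.13 and 7.28 in wildtype. All tumour arrays exceeded all Sufu KO arrays, which exceeded wildtype. The folds over wildtype were 2.58 in the tumours (adjusted p = 5.21e-08) and 1.70 in Sufu KO (adjusted p = 3.13e-05). Gmnn, the inhibitor of Cdt1, read 5.28, 5.27 and 5.14 in the tumours, 4.83, 4.80 and 4.88 in Sufu KO, and 4.88, 4.83 and 4.87 in wildtype. All 9 values lay below the 25th percentile of their array (5.32 to 5.41), so Gmnn was not tested with the rest and a true difference may be understated. In a fit of all 19938 genes without the filter its log2 difference was 0.37 ± 0.06 (SE) in the tumours (adjusted p = 0.000423) and -0.03 ± 0.06 in Sufu KO (adjusted p = 0.842).

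The kinase that fires origins was uneven between its parts. Dbf4, the regulatory subunit, read 8.14, 8.05 and 7.54 in the tumours, 6.82, 6.77 and 7.23 in Sufu KO, and 5.58, 5.29 and 5.46 in wildtype. Relative to wildtype it was 5.53-fold higher in the tumours (adjusted p = 1.15e-07) and 2.83-fold higher in Sufu KO (adjusted p = 3.80e-05), the fifth highest difference of the 45 in both. Cdc7, the catalytic subunit, was 1.48-fold higher in the tumours (adjusted p = 0.000109) and 1.25-fold higher in Sufu KO (adjusted p = 0.0153). In Sufu KO its call ended without Sufu KO replicate 2 or 3 or wildtype replicate 2 (adjusted p 0.0514 to 0.0671).

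Cdc45, the 4 GINS subunits and Ticrr, which turn the loaded ring into a moving helicase, each rose in both mutants. Ticrr, also called Treslin, which brings Cdc45 to origins, read 8.50, 8.54 and 7.88 in the tumours, 7.19, 7.19 and 7.19 in Sufu KO, and 6.03, 5.64 and 5.95 in wildtype. Its 3 Sufu KO arrays agreed to the second decimal, and it was 5.42-fold higher in the tumours (adjusted p = 1.04e-07) and 2.49-fold in Sufu KO (adjusted p = 7.91e-05). Cdc45, a helicase subunit, read 8.55, 8.84 and 8.10 in the tumours, 7.87, 7.74 and 7.76 in Sufu KO, and 7.14, 7.27 and 7.01 in wildtype. The gain was 2.56-fold in the tumours (adjusted p = 7.97e-06) and 1.57-fold in Sufu KO (adjusted p = 0.00632), with no overlap between groups. The GINS subunits spread out. Gins1 rose 3.60-fold in the tumours and 1.98-fold in Sufu KO, Gins2 2.36-fold in the tumours and 1.70-fold in Sufu KO, and Gins3 2.17-fold in the tumours and 1.49-fold in Sufu KO. The Gins3 call in Sufu KO ended without wildtype replicate 2 (adjusted p = 0.0604). Gins4, the fourth subunit, read 9.38, 9.34 and 9.10 in the tumours, 9.03, 9.08 and 9.05 in Sufu KO, and 8.46, 8.56 and 8.57 in wildtype. Its rise was 1.68-fold in the tumours (adjusted p = 7.42e-06) and 1.44-fold in Sufu KO (adjusted p = 0.000538).

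Polymerase genes rose in every complex, most of all the catalytic subunit of polymerase epsilon, which copies the leading strand. That gene, Pole, read 9.22, 9.25 and 8.86 in the tumours, 7.86, 7.85 and 8.06 in Sufu KO, and 6.55, 5.97 and 6.22 in wildtype. Relative to wildtype it was 7.29-fold higher in the tumours (adjusted p = 2.03e-08) and 3.20-fold higher in Sufu KO (adjusted p = 7.93e-06), and its partner Pole2 2.95-fold in the tumours and 1.61-fold in Sufu KO. In polymerase delta, which copies the lagging strand, the catalytic Pold1 rose 2.17-fold in the tumours and 1.41-fold in Sufu KO, the accessory Pold2 2.54-fold in the tumours and 1.38-fold in Sufu KO, and Pold3 2.01-fold in the tumours and 1.46-fold in Sufu KO. Pold2 in Sufu KO was close to the threshold (adjusted p = 0.0470). Leaving out any Sufu KO or wildtype array, or tumour replicate 2, ended the call (adjusted p 0.0523 to 0.152), as did the replicate block (0.0686) and testing without a filter (0.0563). Of polymerase alpha and primase, Prim1, the catalytic primase, moved most, at 4.61-fold in the tumours and 2.41-fold in Sufu KO. Prim2, its partner, rose 2.33-fold in the tumours and 1.64-fold in Sufu KO, and Pola2 2.67-fold in the tumours and 1.69-fold in Sufu KO. Pola1, the catalytic subunit, is X-linked and rose 3.11-fold in the tumours and 1.60-fold in Sufu KO. With Xist level as a covariate its log2 difference was 1.81 in the tumours and 0.85 in Sufu KO, where the fit without it gave 1.64 in the tumours and 0.68 in Sufu KO.

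Pcna forms the sliding clamp that holds polymerases on DNA. It read 11.26, 11.24 and 10.95 in the tumours, 10.19, 10.28 and 10.37 in Sufu KO, and 8.96, 8.99 and 9.20 in wildtype. Each tumour array was above each Sufu KO array, and those above wildtype, and Pcna was 4.29-fold higher in the tumours (adjusted p = 1.50e-08) and 2.35-fold in Sufu KO (adjusted p = 5.65e-06). The other probe set annotated to Pcna gave log2 differences of 2.10 in the tumours and 1.24 in Sufu KO, and since the genome also holds Pcna pseudogenes the share of near-identical copies is uncertain. Among the loader subunits, Rfc4 rose 4.97-fold in the tumours and 2.71-fold in Sufu KO, Rfc5 3.33-fold in the tumours and 2.19-fold in Sufu KO, and Rfc3 2.48-fold in the tumours and 1.77-fold in Sufu KO. Rfc1, the large subunit, rose 2.15-fold in the tumours and 1.59-fold in Sufu KO. Rfc2 moved least, at 1.73-fold in the tumours and 1.25-fold in Sufu KO. Its Sufu KO call ended without Sufu KO replicate 2 or wildtype replicate 1 (adjusted p = 0.0566 and 0.0554).

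Genes that finish the new strand and wrap it also rose. Chaf1b, the middle subunit of the chromatin assembly factor that deposits new histones at the fork, read 9.29, 9.26 and 8.79 in the tumours, 7.81, 7.91 and 7.85 in Sufu KO, and 6.08, 6.40 and 6.10 in wildtype. Relative to wildtype it was 7.56-fold higher in the tumours (adjusted p = 9.15e-09) and 3.16-fold higher in Sufu KO (adjusted p = 4.24e-06). The large subunit Chaf1a rose 2.76-fold in the tumours and 1.74-fold in Sufu KO. Lig1, the ligase of lagging strand fragments, rose 3.17-fold in the tumours and 1.88-fold in Sufu KO, and Fen1, the flap nuclease, 2.01-fold in the tumours and 1.41-fold in Sufu KO. Timeless and Tipin, which steady the fork as a pair, both rose. Timeless rose 1.85-fold in the tumours and 1.44-fold in Sufu KO, and Tipin 2.66-fold in the tumours and 1.82-fold in Sufu KO.

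**Figure D3:**
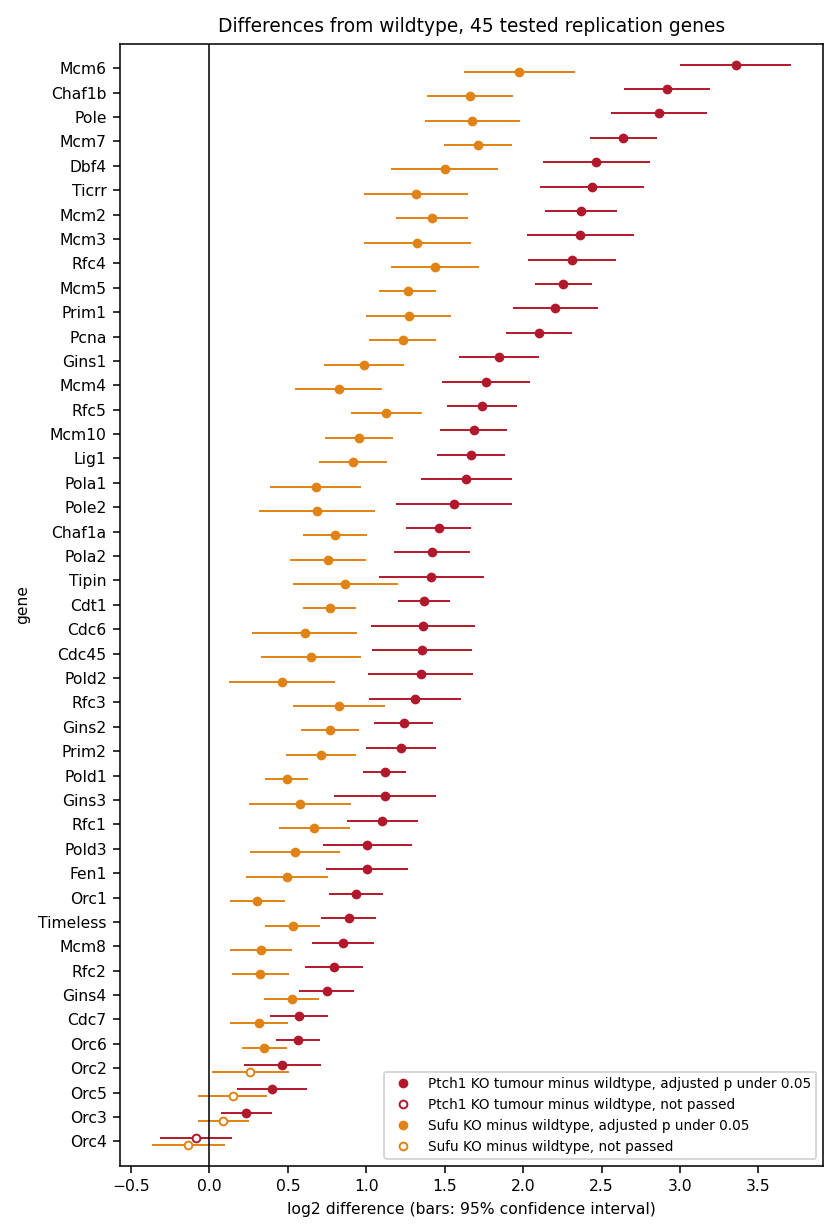
Points are log2 differences from wildtype for the 45 tested replication genes, tumours in red and Sufu KO in orange, with 95% confidence intervals, and open points did not pass adjusted p under 0.05. The tumour point lies right of the Sufu KO point for every gene, from Mcm6 at 3.36 and 1.98 down to Orc4 at -0.09 and -0.13.

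The direct comparison asks whether the tumours differ from Sufu KO cerebellum. Of the 45 genes 40 were higher in the tumours and 0 lower, against 12.2% and 17.5% of all tested genes, and 5 were higher by at least 1 log2 unit against 0.754%. The median log2 difference of the 45 was 0.66. The 5 were Mcm6 at 1.38 ± 0.16 (SE, adjusted p = 7.39e-05), Chaf1b at 1.26 ± 0.13 (adjusted p = 2.74e-05), Pole at 1.19 ± 0.14, Ticrr at 1.12 ± 0.15 and Mcm3 at 1.04 ± 0.16. The whole Mcm2 to Mcm7 ring was between 0.93 and 1.38 higher, a narrower band than its difference from wildtype in the tumours (1.76 to 3.36). Pola1 was 1.95-fold higher and Pold2 1.85-fold, while Timeless was 1.28-fold higher.

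The 5 genes that did not pass between tumours and Sufu KO were Orc2, Orc3, Orc4, Orc5 and Gins4. Their intervals were -0.04 to 0.45 for Orc2, -0.02 to 0.31 for Orc3 and -0.18 to 0.28 for Orc4. For Orc5 the interval was 0.03 to 0.47 and for Gins4 0.05 to 0.40 (adjusted p = 0.0869 and 0.0533). Gins4 arrays of the tumours all lay above those of Sufu KO. It passed without tumour replicate 3 (adjusted p = 0.00477), with the array-median filter (0.0384), after quantile normalization (0.0186), with a trended prior (0.0399) and with array weights (0.00159). Orc5 passed without tumour replicate 3 or Sufu KO replicate 3 (adjusted p = 0.0175 and 0.0169), after quantile normalization (0.0420), with the Xist covariate (0.0475) and with array weights (0.000171). Orc3 passed after quantile normalization (adjusted p = 0.0440) and with array weights (0.00402), and Orc2 with array weights (0.00447). Calls of Orc6, Cdc7, Gins3, Pold3, Rfc3 and Tipin ended when some single array was left out (highest adjusted p 0.0822, 0.153, 0.0570, 0.0830, 0.0825 and 0.0805). The Cdc7 call also ended under the replicate block (adjusted p = 0.0638) and with only these 2 groups fitted (0.0647). Leaving out tumour replicate 1 or 2 brought the count down to 35 or 34, and Sufu KO replicate 1 or 2 to 35 each. Geminin was 0.39 ± 0.06 higher in the tumours in the fit without a filter (adjusted p = 0.000597).

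**Figure D4:**
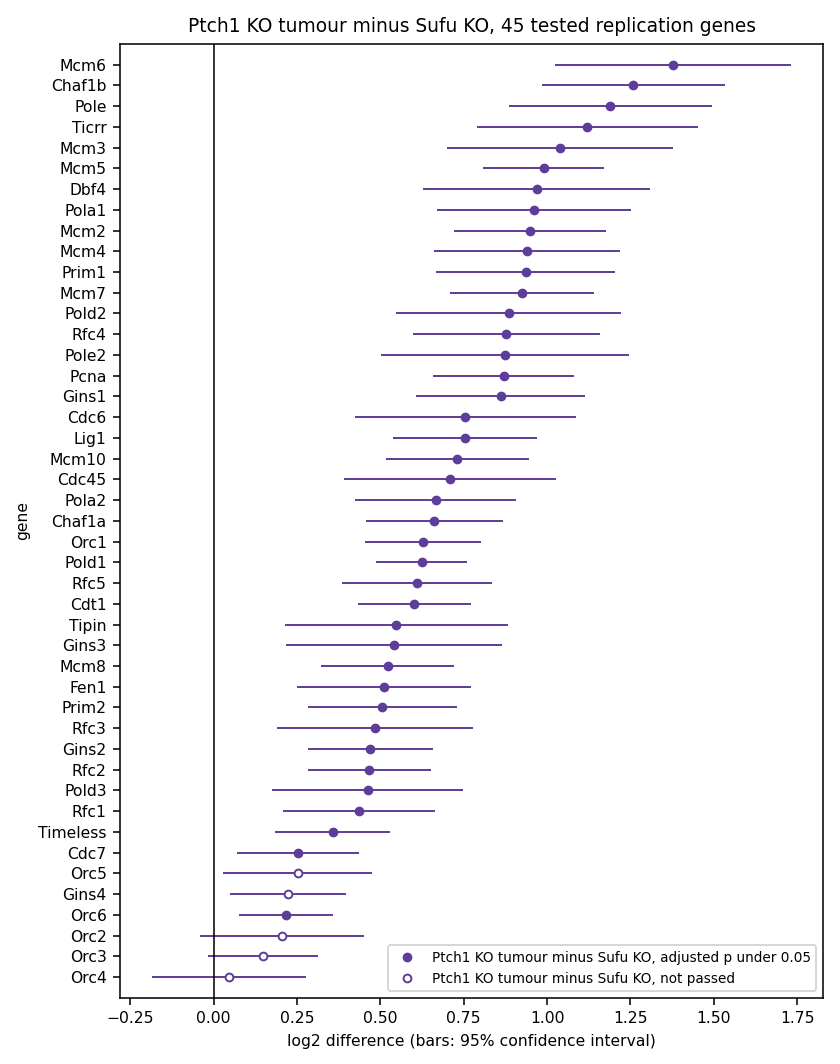
Points are tumour minus Sufu KO log2 differences of the 45 tested replication genes with 95% confidence intervals, and open points did not pass adjusted p under 0.05. All 45 points lie right of 0, from Mcm6 at 1.38 to Orc4 at 0.05, and the 5 open points are 4 Orc genes and Gins4.

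Arrays differed in step across these genes in the tumours, but less so in the other groups. In Sufu KO the array most often lowest was replicate 1, and in wildtype replicate 2, each for 25 of the 46 genes. The order of arrays over all tested genes was not counted. Tumour replicate 3 was the lowest tumour array for 43 of the 46 genes and the highest for 0. This array also stood apart on the first principal component of all tested genes, at 26.1 against 41.3 and 39.9. Its low place therefore cannot be called particular to the replication genes. The median of all 46 relative to the wildtype mean was 1.48 and 1.56 in tumour replicates 1 and 2 and 1.15 in replicate 3. The median SD of a gene was 0.21 in the tumours, against 0.09 in Sufu KO and 0.11 in wildtype. Without tumour replicate 3 the median difference of the 45 from wildtype was 1.55 in place of 1.37, and 44 were still called higher. The granule neuron markers, also relative to wildtype, were at -1.48 in that array and at -2.10 and -1.95 in the others (medians). Its part in the spread was not tested. In Sufu KO, replicate 3 was the highest array for 26 of the 46 genes, at a median of 0.80 against 0.72 and 0.69. The lower arrays of the tumours still read above all Sufu KO arrays for most genes, the exceptions among called ones being Tipin and Pold3.

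**Figure D5:**
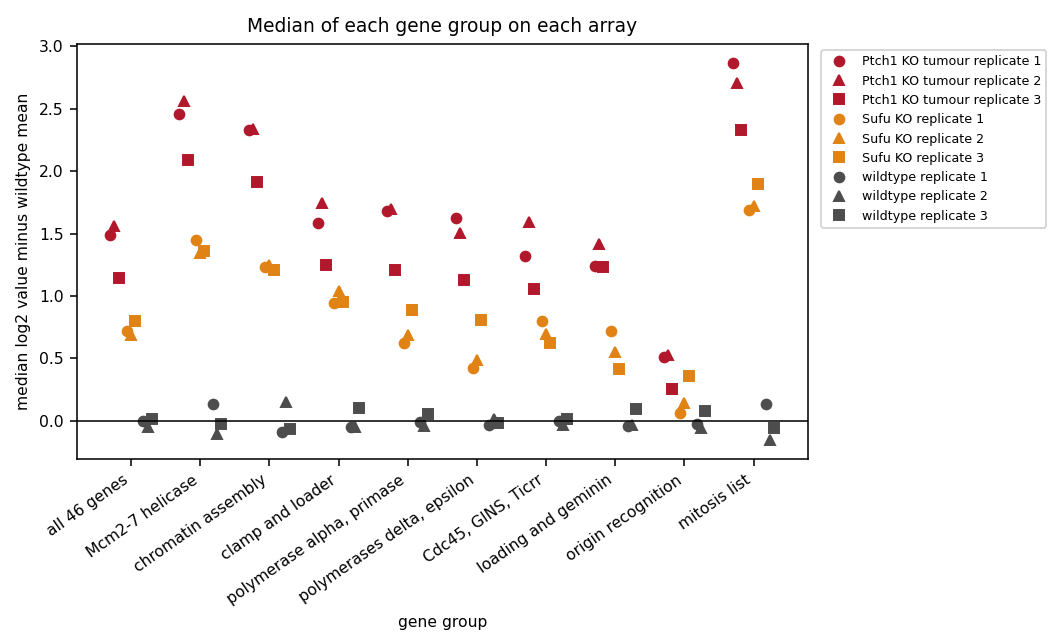
Each point is the median, over the genes of 1 group, of the log2 value on 1 array minus the wildtype mean; colours give the sample group and shapes the replicate. Tumour replicate 3 (red squares) lies below the other tumour arrays in every group plotted, closest to another array in the loading group, and above all Sufu KO arrays except in the origin recognition group, where it reads 0.25 against 0.36 for Sufu KO replicate 3.

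Other replication genes, 35 outside the list above, followed the same direction less uniformly. In the tumours 32 of 35 rose and 1 fell (median log2 difference 0.89), against 22.1% and 24.7% of all tested genes. In Sufu KO 25 rose and 1 fell (0.43), against 13% and 12.4%. Between tumours and Sufu KO 27 were higher and 0 lower (0.51), against 12.2% and 17.5%. Hells, a chromatin remodeller of DNA methylation, rose 5.61-fold in the tumours and 2.61-fold in Sufu KO. Exo1, a nuclease, rose 4.85-fold in the tumours, and Uhrf1, which guides maintenance methylation, 4.73-fold in the tumours and 2.59-fold in Sufu KO. Asf1b, a histone chaperone, rose 2.46-fold in Sufu KO. Pold4, the smallest subunit of polymerase delta, read 7.14, 7.15 and 6.97 in the tumours, 7.34, 7.43 and 7.12 in Sufu KO, and 7.43, 7.53 and 7.34 in wildtype. Pold4 fell by 0.35 log2 units in the tumours (adjusted p = 0.00659), where Pold1, Pold2 and Pold3 rose, and its difference in Sufu KO was -0.14 (adjusted p = 0.324). Rif1, which restrains origin firing through a phosphatase, had a log2 difference of -0.30 in the tumours (adjusted p = 0.0533) and fell by 0.45 in Sufu KO (adjusted p = 0.0124). Donson, a factor of helicase assembly, differed by 0.09 from wildtype in the tumours (adjusted p = 0.327), and Rpa3, a subunit of the single-strand binding protein, by 0.03 in Sufu KO (adjusted p = 0.948). Between tumours and Sufu KO the highest were Exo1 at 1.18, Hells at 1.10 and Mms22l at 0.97, and the lowest Pold4 at -0.21, Donson at -0.16 and Lrwd1 at 0.11.

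Genes that control licensing from outside were mixed. Of 10 genes of Cdt1 and licensing turnover 6 rose and 1 fell in the tumours, and 5 rose and 0 fell in Sufu KO. For this and the next counts, the shares of all tested genes called higher and lower were 22.1% and 24.7% in the tumours. In Sufu KO they were 13% and 12.4%. Dtl, the adaptor that marks Cdt1 for destruction on Pcna-bound DNA, rose 8.51-fold in the tumours and 4.06-fold in Sufu KO. Its ligase scaffold Cul4a had log2 differences of 0.09 in the tumours (adjusted p = 0.338) and 0.17 in Sufu KO (adjusted p = 0.0924). Of 13 E2F and retinoblastoma family genes 10 rose in the tumours and 7 in Sufu KO. E2f1, an activator, rose 3.53-fold in the tumours and 2.55-fold in Sufu KO. Rb1 was 1.23-fold higher in the tumours (adjusted p = 0.0250), and the log2 difference in Sufu KO was 0.19 (adjusted p = 0.207). All 19 tested mitosis genes rose in both mutants, with median log2 differences of 2.65 in the tumours and 1.77 in Sufu KO. Mki67, the proliferation marker, read 10.78, 10.74 and 10.28 in the tumours, 9.59, 9.67 and 9.75 in Sufu KO, and 7.31, 6.82 and 6.98 in wildtype, and Top2a was 9.83-fold above wildtype in the tumours and 5.08-fold in Sufu KO.

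Cell type markers moved alongside, and their part in the replication genes' differences was not tested. Beside the counts below, 22.1% of all tested genes were called higher and 24.7% lower in the tumours. In Sufu KO these shares were 13% and 12.4%, and between the tumours and Sufu KO 12.2% and 17.5%. Of 6 granule neuron progenitor markers 5 rose and 0 fell in each mutant. Their median log2 difference was 2.19 in the tumours and 1.47 in Sufu KO. Their summed linear level was 10965 to 12467 in the tumours and 9186 to 9956 in Sufu KO, against 5373 to 6058 in wildtype. Zic1, the brightest of the 6 in every group (mean 12.05 in wildtype), weighs most in these sums. It was the marker not called in either mutant (log2 difference -0.02 in the tumours). Of 8 granule neuron markers 6 fell and 1 rose in each mutant, with sums of 8970 to 11831 in the tumours and 15694 to 16941 in Sufu KO, against 21388 to 23169 in wildtype. All 6 tested Purkinje markers fell in the tumours and 5 in Sufu KO, with sums of 3160 to 3571 in the tumours and 7128 to 7744 in Sufu KO, against 11343 to 12130 in wildtype. All 6 oligodendrocyte markers fell in both (2593 to 3331 in the tumours and 6163 to 8206 in Sufu KO, against 10006 to 11791 in wildtype). Among other cells that can divide, 3 of 5 oligodendrocyte precursor markers rose and 1 fell in the tumours, and 1 rose and 2 fell in Sufu KO (sums of 2284 to 2728 in the tumours and 1298 to 1429 in Sufu KO, against 1235 to 1324 in wildtype). The marker that rose in Sufu KO was Pdgfra (log2 difference 1.14), and Olig1 (-0.52) and Sox10 (-0.49) fell. In the tumours Pdgfra rose by 2.36, while the median log2 difference of the 5 markers was 0.34. Pdgfra was also the brightest of the 5 in the tumours, so the tumour sums rest largely on it. Of 6 microglial markers 3 rose in the tumours, where 22.1% of all tested genes did, and 1 in Sufu KO, a share near the 13% of all genes (1133 to 1321 in the tumours and 887 to 1001 in Sufu KO, against 811 to 839 in wildtype). GABA interneuron markers fell in 6 of 6 cases in the tumours and 5 in Sufu KO, Bergmann glia and astrocyte markers in 5 of 6 in each, and endothelial and pericyte markers in 6 of 6 in the tumours and 4 in Sufu KO. Between the tumours and Sufu KO, 5 of 6 progenitor markers were higher, and 7 of 8 granule neuron and 6 of 6 Purkinje markers lower.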

How the data were processed

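RNA from 9 mouse samples was measured on Affymetrix Mouse Gene 1.0 ST arrays, per the labels' protocols. The authors deposited log2 expression values for 35556 probe sets on each array, and the scale was recognised from the values. How they corrected background, normalized and summarised probes is not given in the sources used here, and the values carry no detection calls. Probe sets were named from the array annotation supplied, with symbols checked by ID in RefSeq (GRCm38.p6, used for names): 21789 had 1 symbol, 1621 several and 12146 were unlisted. Genes above the 25th percentile of their array on at least 3 arrays entered a linear model (limma 3.58.1, R 4.3.3) with 1 mean per group over all 9 arrays, empirical Bayes variances, 2-sided p-values and Benjamini-Hochberg adjustment over 16323 genes. The fit was checked on simulated data. Fold is 2 to the power of the absolute log2 difference, and 3 arrays a group limit the precision. Alternatives varied the filter, probe set rule, normalization, variance prior, array weights, samples fitted, replicate block, Xist covariate, threshold and single arrays. The genes and lists were chosen with earlier results of these data known. Genes given array by array were the Mcm2 to Mcm7 ring, Cdc6, Cdt1, Gmnn, Cdc45, Pcna and the 5 highest and 5 lowest in each comparison, and of the other replication genes the 3 highest and 3 lowest were named. Pold4 and Mki67 are also given by array. Also named, and chosen after their values were seen, are Dtl, Cul4a, Mcm9, Gabra6, Pcp2, Zic1, Pdgfra, Olig1 and Sox10. Listed genes lacking a probe set of their own were not analysed here.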

Additional observations from a re-analysis of the deposited data

How the results depend on the processing

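The counts of replication genes called higher held within 1.5 times under every alternative that kept the threshold. They lay between 43 and 45 in the tumours against wildtype, between 36 and 42 in Sufu KO against wildtype, and between 34 and 44 in the tumours against Sufu KO. Asking also for 1 log2 unit lowered them to 34, 13 and 5. For the alternatives that kept the threshold, the share of all tested genes called is not given here. With estimated array weights 1 gene, Orc4, was called lower in Sufu KO, and over the fits leaving out 1 array that count ran from 0 to 1. With Xist as a covariate the uncalled difference of Orc4 in the tumours against wildtype was 0.011 and that of Ptch1 in Sufu KO 0.031, both of opposite sign to the main values. Orc4 in the tumours against Sufu KO ran from -0.044 to 0.19 when 1 array was left out. Orc2 in Sufu KO passed with array weights or the Xist covariate (adjusted p = 0.00944 and 0.0251). The array weights gave Sufu KO replicate 2 a weight of 17.99 and the other 8 arrays 0.37 to 1.16, so the weighted Sufu KO values rest largely on 1 array. The cause was not tested. Replicate numbers did not pair the samples. Correlations of same-numbered samples' deviations from their group means ran from -0.31 to 0.35, and 7 of 18 best matches shared the number. A fit with the replicate number as a block called 44, 40 and 39 genes higher. The values have no detection calls, so what is background among dim genes such as Gmnn and Orc1 could not be read.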
